A study of Mus musculus with 16 samples.

Results

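Transcripts of 9 genes of the apoptosis machinery were followed in mouse cerebellum that has or lacks a working Npc1 gene. The genes were the effectors Bax and Bak1, the survival factors Bcl2, Bcl2l1 and Mcl1, the BH3-only genes Bcl2l11 and Bid, and the initiator caspases Casp8 and Casp9. They were found on the Agilent arrays by gene name, assigned from the RefSeq accession of a probe or else from its array name. Every non-control probe of these genes was kept, and each carries the same name in the gene column of the arrays. The arrays held 27670 gene names on 41174 probes, of which the 9 genes had 17 probes. For 8455 of all probes no single RefSeq gene was found, so the label on the array was kept and counted as a gene name. Enough signal for a test was found for 15 of the 17 probes, and all 9 genes were represented.

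Npc1 encodes a membrane protein that exports cholesterol from lysosomes. Cerebella came from 8 mice aged 3 weeks, of which 4 were Npc1-/- and 4 wild type (Npc1+/+), bred from heterozygotes of the strain BALB/cNctr-Npc1m1N/J on a BALB/c background. The Npc1 defect is present in every cell of the Npc1-/- mice, so no cell type was targeted. RNA of whole cerebellum was labelled with Cy3 and hybridised to single-colour Agilent arrays, 4 per genotype. The Illumina bead arrays of the same study are not used here, since their table pairs probe numbers with no gene names.

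Apoptosis starts along a mitochondrial and a death receptor route. On the first, BH3-only proteins such as BIM (from Bcl2l11) release BAX and BAK from survival proteins such as BCL2, BCL-XL (from Bcl2l1) and MCL1. BAX and BAK then open the outer mitochondrial membrane, cytochrome c leaves, and caspase-9 is activated on the apoptosome. On the second, ligands of the tumour necrosis factor family activate caspase-8, which cleaves BID and thereby engages the mitochondrial route. In the cerebellum, Bax-dependent death limits the number of Purkinje cells during development, and Purkinje cell loss marks later Niemann-Pick type C disease. Much of this control acts on proteins, by cleavage, phosphorylation and localisation, which transcript levels do not show.

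Levels are log2 processed signals relative to the 75th percentile of each array, so 0 is a signal equal to that percentile and 1 unit is a doubling. Levels of different probes are not read as relative amounts of transcript, because probes differ in binding strength. A log2 fold change is the Npc1-/- mean minus the wild-type mean, and adjusted p-values come from limma with Benjamini-Hochberg adjustment over all genes tested, with a threshold of 0.05. Fold changes carry their standard error (SE), and levels their standard deviation over mice (SD). Values are given in the order of replicates 1 to 4.

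Between 22182 and 28137 probes were well above background per array, fewest on wild-type replicate 2. Wild-type replicate 3 stood apart on the first principal component (73.04, against -36.52 to 23.0 for the other arrays). Npc1 itself parted the genotypes as labelled, with a log2 fold change of -1.99 ± 0.10 (limma adjusted p = 0.00045). Markers of Purkinje cells, granule cells, oligodendrocytes and astrocytes were present on every array, as the label cerebellum implies. Among the T cell markers, Cd3d, Cd3g and Cd8a were above background on no array. Cd3e was above background on 4 Npc1-/- and 3 wild-type arrays (log2 fold change 0.27, limma adjusted p = 0.797). Cd4 was above background too, but on too few arrays to be tested. The arrays lay on 4 slides, and slides 2, 3 and 4 held both genotypes with 1 wild-type array each. The 4 arrays per genotype limit the precision of every comparison.

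The probes are shown first where a gene has several that read distant stretches or where the value of the gene rests on a single probe. Each line gives the first 30 of the 60 bases as the array file gives them, 5′ to 3′, with the position of the whole probe in the mouse build mm7. No base is in capitals, because no motif was searched. Bcl2, Bcl2l1, Bax and Bid lie on the minus strand and Casp8 on the plus strand. Whether a probe lies in an exon body or an untranslated region was not determined, since no annotation of mm7 was used.
Bcl2 probe A_52_P534870 (chr1:106438098-106438157): catataatggctctttgtttgtgttgttag
Bcl2 probe A_52_P438280 (chr1:106610589-106610648): ggagagaagctattttgtaagatgtttagt
Bcl2l1 probe A_52_P148861 (chr2:152521752-152521811): ttattccttgtgaagatgatatactatttt
Bcl2l1 probe A_52_P510877 (chr2:152570306-152570365): attggtgagtcggattgcaagttggatggc
Bcl2l1 probe A_51_P299454 (chr2:152570851-152570910): agacccagtaagtgagcaggtgttttggac
Bax probe A_51_P254541 (chr7:41641827-41641982): cagatcatgaagacaggggcctttttgcta
Bid probe A_52_P574653 (chr6:120918747-120918806): ctctttccctgggtaacatcacagaagatt
Casp8 probe A_51_P247799 (chr1:59095846-59095905): gtgaagaactgcgtttcctaccgagatcct

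The Bax probe spans 156 bases of the genome with 60 bases of sequence, so it crosses a gap in the genomic match and reads joined sequence. For Bcl2, the file assigns A_51_P380013 to transcript variant 2, A_52_P534870 to transcript variant 1 and A_52_P438280 to a cDNA clone. The variant 1 probe lies 172 kb downstream of the other Bcl2 probes. In Bcl2l1, A_52_P148861 lies 48.5 kb downstream of the other probes. Base composition differed between probes of a gene, with 31.7% G and C in the Bcl2l1 probe A_52_P148861 and 45.0% in A_51_P299454. The Bax probe, the Bcl2 variant 1 probe and the Bcl2l1 probe A_52_P148861 were printed at 10 spots per array, and the others at 1 spot.

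The comparison of the genotypes asked whether transcripts of the apoptosis machinery differ in Npc1-/- cerebellum at this age. None of the 9 genes passed the threshold (0 of 9, limma), while 0.767% of all 17983 genes tested did. The adjusted p-values of the 9 genes ran from 0.631 to 0.945. Bid and Casp8, 2 of 9, had an unadjusted p under 0.05, as did 7.4% of all genes. The genotypes overlapped for each of the 9 genes, whereas they did not overlap for 4.92% of all genes. The value was higher in Npc1-/- mice for 4 genes and lower for 5, with a median log2 fold change of -0.03, beside -0.015 over all genes.

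These data bound the differences as well. The standard errors of the 9 log2 fold changes ran from 0.10 to 0.18, against a median of 0.14 over all genes. On the brightest probe of each gene, the 95% confidence intervals of the ratio of Npc1-/- to wild type ran from 0.631 at the lowest to 1.78 at the highest. All 9 intervals thus lay within a 2-fold change either way. The interval of the Bcl2 clone probe, from 0.754 to 3.04, did not. A p that misses the threshold does not show equal levels.

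**Figure D1:**
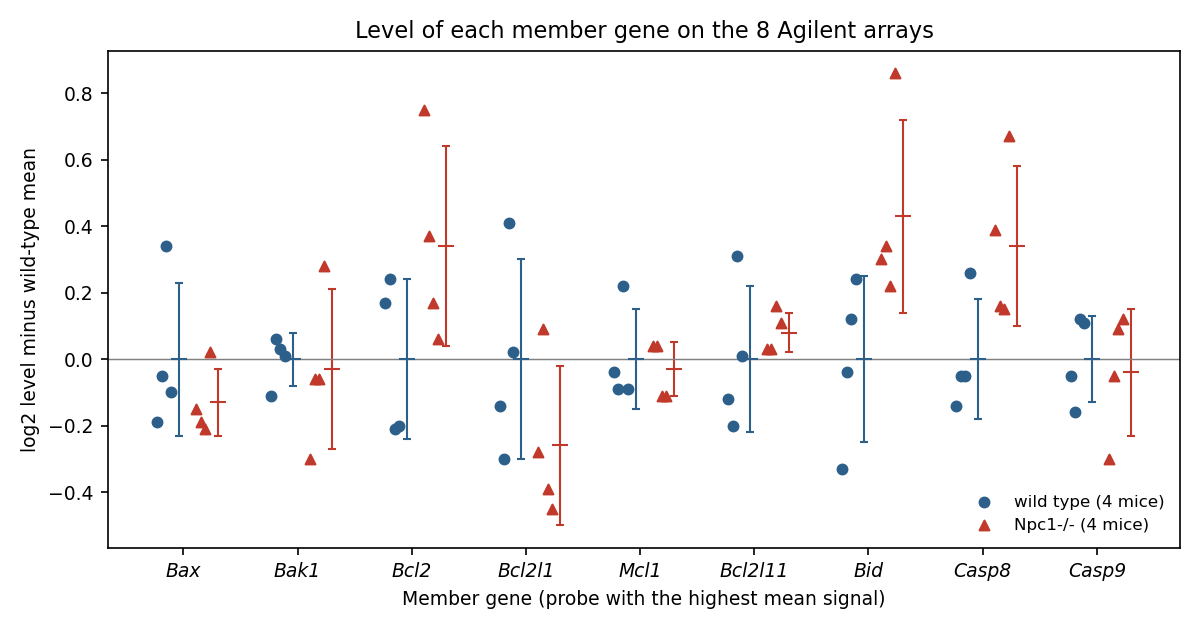
Level of each of the 9 genes on the 8 Agilent arrays, in log2 units relative to the wild-type mean of that gene (vertical axis); circles are wild-type and triangles Npc1-/- mice, and bars give the mean ± SD of each group (n = 4). The groups overlap for every gene, and Bid, Casp8 and Bcl2 have the highest Npc1-/- means relative to wild type.

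**Figure D2:**
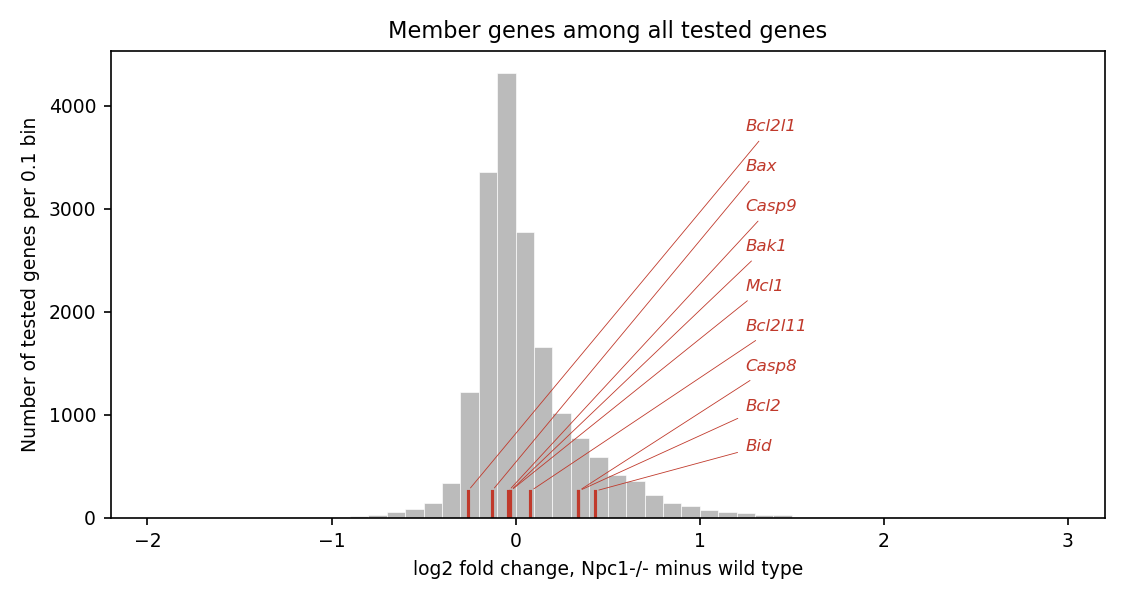
Number of tested genes per bin of 0.1 log2 units against the log2 fold change, Npc1-/- minus wild type, for all 17983 genes (grey bars), with the 9 genes marked in red. The 9 genes lie between -0.26 and 0.43, within the central 95% of all genes, which runs from -0.37 to 0.88.

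The effectors of mitochondrial permeabilisation showed no difference between the genotypes past the threshold. Bax, which forms pores in the outer mitochondrial membrane, had levels of 1.65, 1.61, 1.59 and 1.82 in Npc1-/- mice and 1.61, 1.75, 2.14 and 1.70 in wild-type mice. The range of the Npc1-/- mice lay inside that of the wild-type mice apart from 1.59, and wild-type replicate 3 was the highest array. Means were 1.67 ± 0.10 (SD, n = 4) and 1.80 ± 0.23 (SD, n = 4). This gave a log2 fold change of -0.13 ± 0.13 (SE; 95% interval -0.43 to 0.17; limma adjusted p = 0.766). Leaving out wild-type replicate 3 brought the Bax value to -0.02.

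The 10 spots of the Bax probe varied within an array by an SD of 0.0199 to 0.0717 log2 units, less than the SD between mice of either genotype. Most of the spread in Bax was thus between arrays rather than between spots. Within slides 2, 3 and 4, the Bax difference was -0.52, -0.02 and -0.02, and slide 2 is the one that holds wild-type replicate 3.

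Bak1, the second effector and partly redundant with Bax, gave -1.14, -0.90, -0.90 and -0.56 in Npc1-/- mice. Its wild-type levels were -0.95, -0.78, -0.81 and -0.83. The wild-type mice lay between -0.95 and -0.78, and the Npc1-/- mice on both sides of them. Bak1 had a log2 fold change of -0.03 ± 0.13 (SE; 95% interval -0.32 to 0.26; limma adjusted p = 0.945). Another Bak1 probe, 1.09 kb away on chromosome 17, gave 0.06 ± 0.16 (SE; limma adjusted p = 0.919 over all probes).

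Among the survival genes, Bcl2 had the higher value in Npc1-/- mice and Bcl2l1 the lower, and neither difference passed the threshold. The brightest Bcl2 probe, that of variant 2, gave 0.54, 0.16, -0.04 and -0.15 in Npc1-/- mice and -0.04, 0.03, -0.42 and -0.41 in wild-type mice. The highest array was Npc1-/- replicate 1, the lowest arrays were wild-type replicates 3 and 4, and the groups overlapped between. The log2 fold change was 0.34 ± 0.18 (SE; 95% interval -0.07 to 0.74; limma adjusted p = 0.752). Within slides 2, 3 and 4 it was 0.58, 0.16 and 0.00.

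The Bcl2 variant 1 probe, printed at 10 spots, gave a smaller difference. Its levels were -0.04, 0.10, -0.10 and -0.19 in Npc1-/- mice and -0.24, -0.18, -0.26 and -0.04 in wild-type mice. Its log2 fold change was 0.12 ± 0.10 (SE; 95% interval -0.11 to 0.36; limma adjusted p = 0.811 over all probes). The clone probe varied more between mice, at -2.18, -2.16, -2.23 and -3.12 in Npc1-/- mice and -2.05, -2.43, -3.67 and -3.94 in wild-type mice. On that probe, wild-type replicates 3 and 4 and Npc1-/- replicate 4 were low, and the estimate was 0.60 with a 95% interval from -0.41 to 1.61 (limma adjusted p = 0.811 over all probes). The difference between the probes was not tested, and each interval holds the estimate of the variant 1 probe.

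Bcl2l1, whose main product BCL-XL is a survival protein of neurons, gave 0.77, 1.14, 0.66 and 0.60 in Npc1-/- mice on its brightest probe. In wild-type mice the levels were 0.91, 0.75, 1.46 and 1.07. Npc1-/- replicate 2 lay above 3 of the wild-type mice, so the groups overlapped. The log2 fold change was -0.26 ± 0.18 (SE; 95% interval -0.67 to 0.15; limma adjusted p = 0.752), and -0.12 without wild-type replicate 3. The other Bcl2l1 probes gave -0.15 ± 0.15 and -0.11 ± 0.14 (SE; limma adjusted p = 0.819 and 0.842 over all probes). All 3 Bcl2l1 probes thus had a lower value in Npc1-/- mice, but they read one gene in the same mice and are not separate evidence.

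Mcl1, a short-lived survival protein, had levels of 3.23, 3.23, 3.08 and 3.08 in Npc1-/- mice and 3.15, 3.10, 3.41 and 3.10 in wild-type mice. The arrays lay close together, with wild-type replicate 3 highest. Mcl1 had a log2 fold change of -0.03 ± 0.10 (SE; 95% interval -0.27 to 0.20; limma adjusted p = 0.921), which bounds Mcl1 most narrowly of the 9 genes. Another Mcl1 probe gave -0.06 ± 0.16 (SE; limma adjusted p = 0.93 over all probes).

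The balance of effector to survival transcripts was followed as the difference of log2 levels on one array, which the scaling between arrays does not touch. Bax minus Bcl2, on the probes with 10 spots and relative to the wild-type mean, was -0.29, -0.47, -0.29 and 0.03 in Npc1-/- mice. In wild-type mice it was -0.13, -0.05, 0.42 and -0.24. The group means were -0.26 ± 0.21 (SD, n = 4) and 0.00 ± 0.29 (SD, n = 4), and the groups overlapped. Bax minus Bcl2l1 was 0.13, -0.27, 0.18 and 0.47 in Npc1-/- mice and -0.05, 0.25, -0.07 and -0.13 in wild-type mice. This ratio had its higher mean in Npc1-/- mice and the Bcl2 ratio its lower, both within the spread between mice, and no test was run on either.

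**Figure D3:**
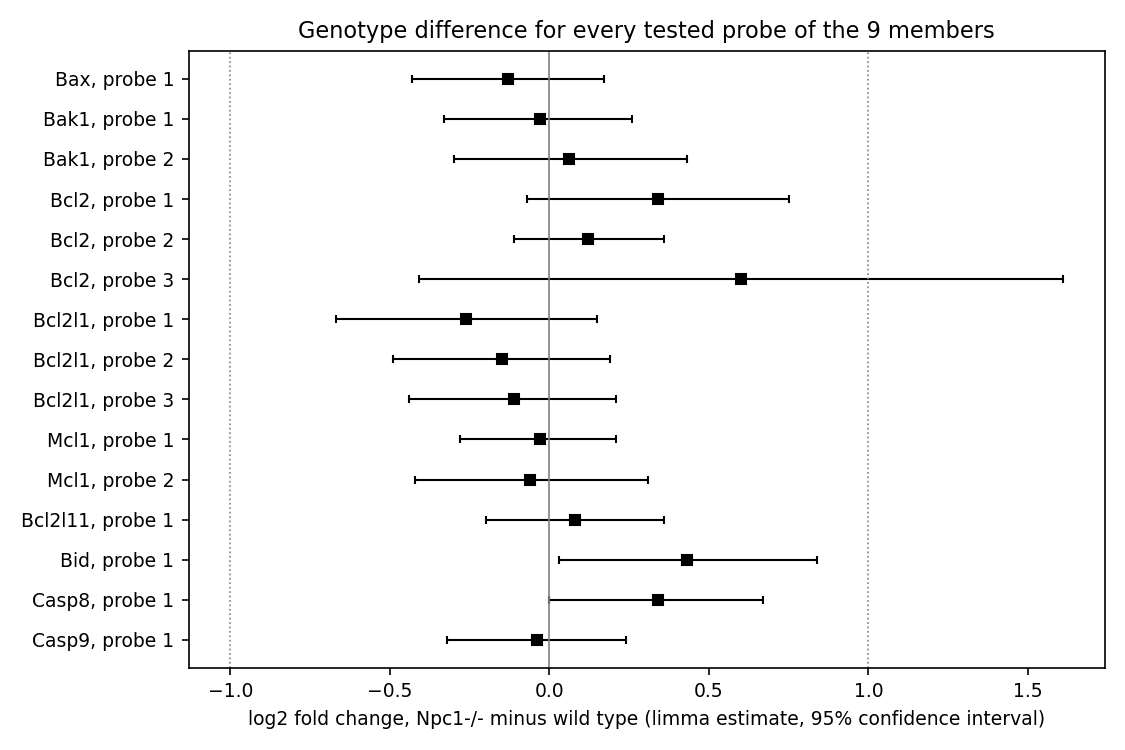
Log2 fold change, Npc1-/- minus wild type, of the 15 tested probes of the 9 genes (squares) with the 95% confidence interval from limma over all probes (bars); dotted lines mark a 2-fold change. Of the 15 intervals, only that of the Bid probe lies clear of 0 (0.03 to 0.84, unadjusted), and the interval of the Bcl2 clone probe (-0.41 to 1.61) is the widest.

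At the level of probes, 0 of the 15 tested probes passed the threshold, beside 0.523% of the 27164 probes tested on the array. The Bid probe alone had an unadjusted p under 0.05.

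Bid and Casp8, which act together on the death receptor route, had the smallest p-values of the 9 genes. Bid, which caspase-8 cleaves to link death receptors to mitochondria, gave -2.11, -2.07, -2.19 and -1.55 in Npc1-/- mice. Wild-type levels were -2.74, -2.45, -2.29 and -2.17. The groups overlapped only by Npc1-/- replicate 3 at -2.19 and wild-type replicate 4 at -2.17. Bid had a log2 fold change of 0.43 ± 0.18 (SE; 95% interval 0.03 to 0.83), a 1.35-fold higher value with an interval from 1.02 to 1.78. Its limma adjusted p was 0.631, and the unadjusted p was 0.039. Within slides 2, 3 and 4 the difference was 0.22, 0.62 and 0.54, and without wild-type replicate 3 it was 0.47.

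Casp8, the initiator caspase of the death receptor route, gave -2.17, -2.40, -2.41 and -1.89 in Npc1-/- mice and -2.70, -2.61, -2.61 and -2.30 in wild-type mice. All 4 Npc1-/- mice lay above wild-type replicates 1 to 3, and Npc1-/- replicates 2 and 3 lay below wild-type replicate 4. Casp8 had a log2 fold change of 0.34 ± 0.15 (SE; 95% interval 0.00 to 0.67), a 1.26-fold higher value (limma adjusted p = 0.672; unadjusted p = 0.0492). Within slides 2, 3 and 4 it was 0.21, 0.58 and 0.29. For both Bid and Casp8, Npc1-/- replicate 4 was the highest array and wild-type replicate 1 the lowest. The unadjusted p of Bid was no longer under 0.05 without Npc1-/- replicate 2 or 4 or wild-type replicate 1 or 2. That of Casp8 was no longer under 0.05 without Npc1-/- replicate 1 or 4 or wild-type replicate 1, 2 or 3. Neither was under 0.05 with normexp and quantile normalization, quantile normalization, median centring, no filter, the scan day as a block or array weights. Both stayed under it with slide or replicate blocks, with genes above background on all arrays and as the mean of all probes. With normexp and quantile normalization the Casp8 value was 0.13.

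Markers of microglia and macrophages are given beside Bid and Casp8. Of 11 such markers, 4 (Cd68, Ctss, Tyrobp and Ptprc) rose past the threshold, which 0.767% of all genes passed in either direction. All 11 markers had a higher value in Npc1-/- mice, with a median log2 fold change of 0.59. Their summed signal, in multiples of the 75th percentile, ran from 25.6 to 32.6 in Npc1-/- mice and from 14.5 to 16.7 in wild-type mice. It too was highest on Npc1-/- replicate 4 (32.6) and lowest on wild-type replicate 1 (14.5). The part of these cells in the Bid and Casp8 values was not tested. In whole tissue, a change in the number of cells of a type and a change in RNA per cell cannot be told apart.

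Bcl2l11, which encodes the BH3-only protein BIM, was read by 1 of its 3 probes. That probe gave 0.02, 0.02, 0.15 and 0.10 in Npc1-/- mice and -0.13, -0.21, 0.30 and 0.00 in wild-type mice. The Npc1-/- mice all fell inside the wild-type range. Bcl2l11 had a log2 fold change of 0.08 ± 0.12 (SE; 95% interval -0.20 to 0.36; limma adjusted p = 0.84), and without wild-type replicate 3 it was 0.18. The other probes, whose genomic matches span 11096 and 682 bases and so cross gaps, were well above background on 0 of 8 arrays, and no fold is given for them.

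Casp9, the initiator caspase of the apoptosome, had levels of 1.39, 1.64, 1.78 and 1.81 in Npc1-/- mice and 1.64, 1.53, 1.81 and 1.80 in wild-type mice. The groups overlapped nearly fully, with Npc1-/- replicate 1 the lowest array. The log2 fold change was -0.04 ± 0.12 (SE; 95% interval -0.32 to 0.24; limma adjusted p = 0.926). Within slides 2, 3 and 4 it was -0.16, 0.07 and 0.14.

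Of the further genes of the pathway, 61 in 5 lists, 50 were measured well enough to test and 0 passed the threshold (limma), beside 0.767% of all genes. The unadjusted p was under 0.05 for 7 of the 50, beside 7.4% of all genes, the value was higher in Npc1-/- mice for 25 and lower for 25, and the median log2 fold change was 0.00. The groups did not overlap for 6 of the 50, where 4.92% of all genes were parted.

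In the rest of the BCL2 family, 9 of 15 genes were tested and the median log2 fold change was -0.08, with 3 higher and 6 lower values. Bcl2a1b, a survival gene, came nearest to the threshold of all 50 genes. Its levels were -1.89, -2.18, -1.98 and -1.88 in Npc1-/- mice and -3.63, -4.59, -2.94 and -3.20 in wild-type mice, so the groups did not overlap. The log2 fold change was 1.61 ± 0.32 (SE), a 3.06-fold higher value (limma adjusted p = 0.0772). It was above background on 3 of the 4 wild-type arrays, and without wild-type replicate 2, the lowest, it was 1.28 (adjusted p = 0.0215). With normexp and quantile normalization it was 0.86 ± 0.16 (SE; adjusted p = 0.0463). Bcl2a1b has near-identical copies (Bcl2a1a, Bcl2a1c and Bcl2a1d, not tested here), so which copy was read is uncertain. The groups did not overlap for 7 of the 11 microglial markers, beside 4.92% of all genes. The part of microglia and macrophages in the Bcl2a1b value was not tested.

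Bad, a BH3-only gene under the control of growth factor signalling, gave -2.68, -2.34, -2.55 and -2.55 in Npc1-/- mice and -2.24, -2.15, -1.86 and -2.33 in wild-type mice. Every Npc1-/- mouse lay below every wild-type mouse, the highest Npc1-/- level being -2.34 and the lowest wild-type level -2.33. Bad's difference was -0.39 ± 0.13 log2 units (SE; limma adjusted p = 0.432) on its brightest probe. It was -0.17 ± 0.09 as the mean of its 2 probes (limma adjusted p = 0.755) and -0.25 with array weights. Bik, Hrk and Bcl2l10 were not tested.

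Among the other caspases, 7 of 8 were tested, with 5 higher and 2 lower values and a median of 0.08. The largest differences lay in the inflammatory caspases Casp4 and Casp1. Casp1, which matures interleukin-1 beta, gave -2.45, -2.25, -2.05 and -2.10 in Npc1-/- mice and -3.05, -2.67, -2.56 and -2.79 in wild-type mice. The groups did not overlap, and the log2 fold change was 0.55 ± 0.14 (SE; limma adjusted p = 0.189). Casp4, which senses bacterial lipopolysaccharide in the cell, gave 0.93 ± 0.39 (SE; limma adjusted p = 0.646), with overlapping groups. The Casp4 value was 0.55 without Npc1-/- replicate 4 and 0.38 with normexp and quantile normalization. Its signal was low, with a wild-type mean of -4.57, and above background on 3 of the 4 wild-type arrays.

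All 12 genes of the apoptosome and of the inhibitors of apoptosis were tested, with a median of -0.07 and a range from -0.20 to 0.26. Birc3 and Birc2 encode ubiquitin ligases that restrain caspase-8 activation at death receptors. Birc3 gave 0.26 ± 0.11 and Birc2 -0.17 ± 0.08 (SE; limma adjusted p = 0.668 and 0.724). For Birc2 the Npc1-/- levels of 1.40, 1.39, 1.46 and 1.38 all lay below the wild-type levels of 1.63, 1.49, 1.59 and 1.59. These are the levels of its brightest probe, and the mean of its 2 probes gave 0.00 ± 0.15 (SE; limma adjusted p = 0.997). With normexp and quantile normalization, Birc3 was 0.12. Apaf1, the scaffold on which Casp9 acts and named for that role, gave 0.01 ± 0.11 (SE; limma adjusted p = 0.983).

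In the death receptor pathway, 12 of 16 genes were tested, 9 with a higher and 3 with a lower value, and the median was 0.13. Tnfrsf1a, the main receptor of tumour necrosis factor, gave -0.94, -0.43, -0.68 and -0.55 in Npc1-/- mice and -1.11, -0.98, -1.0 and -0.98 in wild-type mice. The groups did not overlap, though Npc1-/- replicate 1 lay close to the wild-type mice. Its log2 fold change was 0.37 ± 0.12 (SE; limma adjusted p = 0.427). Ripk1, the kinase that passes the receptor signal on to survival or death, gave 0.54 ± 0.28 (SE; limma adjusted p = 0.752). The Ripk1 value was 0.30 without wild-type replicate 2, 0.25 as the mean of its probes and 0.12 with normexp and quantile normalization. The ligands Tnf and Tnfsf10, the receptor Tnfrsf10b and the necroptosis gene Mlkl were not tested.

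All 10 genes of the p53 pathway were tested, with 5 higher and 5 lower values and a median of 0.03. The gene pair with the smallest p was Gadd45a, a stress gene, at -0.14 ± 0.12, and Cdkn1a, a p53 target that halts the cell cycle, at 0.40 ± 0.35 (SE; limma adjusted p = 0.752 for both). Cdkn1a levels were 1.32, 1.32, -0.05 and 0.12 in Npc1-/- mice and 0.02, 0.16, 0.74 and 0.17 in wild-type mice. Npc1-/- replicates 1 and 2 lay above every other mouse and the other Npc1-/- mice did not. Leaving out replicate 1 or replicate 2 alone brought the Cdkn1a difference to 0.19, and with array weights it was 0.75.

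**Figure D4:**
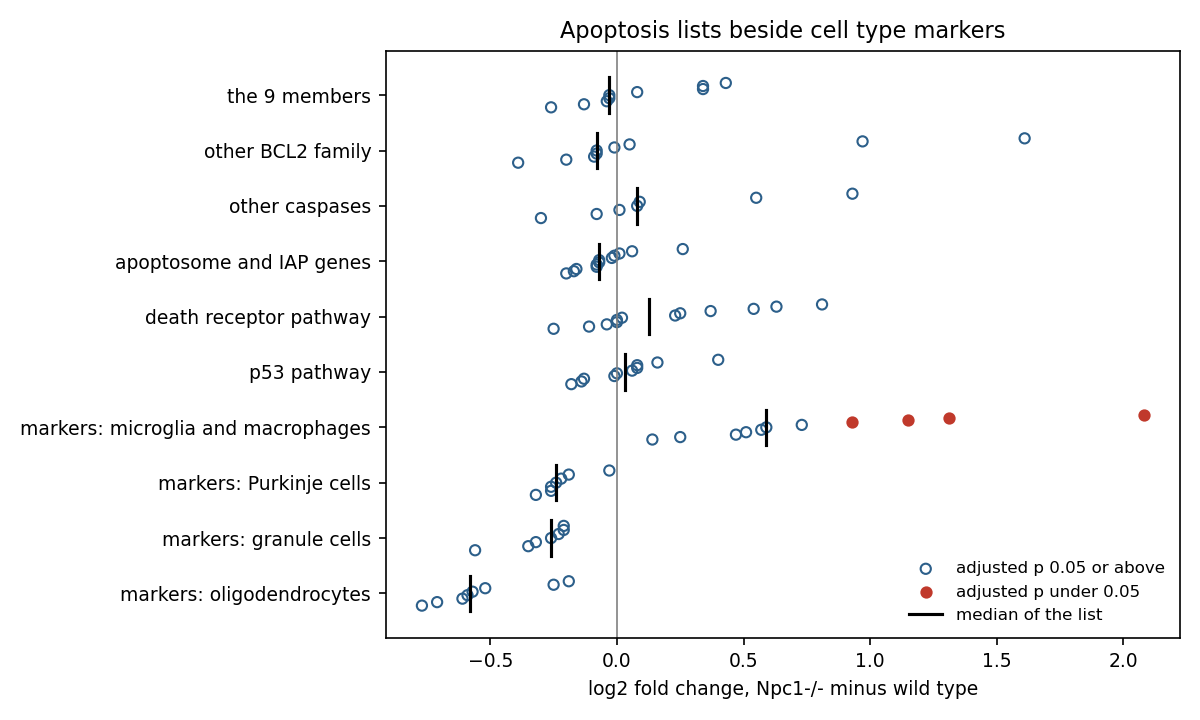
Log2 fold change, Npc1-/- minus wild type, of each tested gene in the apoptosis lists and in 4 lists of cell type markers; filled circles are genes with a limma adjusted p under 0.05 and vertical strokes are list medians. No gene of the apoptosis lists is filled, and 4 microglial markers are.

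Markers of the other cell types are given because the cerebellum mixes them. All 8 oligodendrocyte markers, all 7 Purkinje cell markers and all 7 granule cell markers had lower values in Npc1-/- mice, with medians of -0.58, -0.24 and -0.26, and 0 of them passed the threshold (limma). The summed Purkinje cell signal ran from 309 to 346 in Npc1-/- mice and from 337 to 442 in wild-type mice, and the granule cell signal from 192 to 241 and from 220 to 265. The oligodendrocyte signal ran from 247 to 301 and from 327 to 431, without overlap. Of 7 markers of astrocytes and Bergmann glia, 5 had higher and 2 lower values, with a median of 0.05. Apart from Gfap they ran from -0.15 to 0.20. Gfap, the filament of reactive astrocytes, gave 1.08 ± 0.19 without overlap of the groups (SE; limma adjusted p = 0.0516). Of 5 endothelial markers 2 were higher and 3 lower, and of 5 choroid plexus markers 3 were higher and 2 lower. The summed choroid plexus signal was 1.75 on Npc1-/- replicate 3 and between 4.88 and 10.3 on the other arrays. The part of these cell types in the values of the 9 genes was not tested.

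Genes whose level followed each of the 9 most closely over the 8 arrays were sought among 12260 genes above background on all arrays. The best match was Atpif1 for Bax (Pearson r 0.992), Dhx35 for Bak1 (0.977), Oxsr1 for Bcl2 (0.979), Kcnk1 for Bcl2l1 (0.981) and Ankrd37 for Mcl1 (0.986). It was Ucma for Bcl2l11 (0.975), Tmem86a for Bid (0.985), Dnali1 for Casp8 (0.968) and Adat2 for Casp9 (0.979). The next matches were Tbc1d13, Dmap1, Mafg, Trappc13, Zfp954, Gsdme, Ly86, Nudt10 and Spin2c in the same order of genes, with r from 0.959 to 0.992. None of the 9 genes was among the 2 best matches of another. Each r is the highest of many over the same 8 arrays, which share the genotype groups and the spread of wild-type replicate 3, and it is given as a description.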

How the data were processed

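The deposited intensity values are the processed signals of the Agilent scanner software, which had subtracted background within each array, per the file headers, and had put no common scale on the arrays. The submitters' processing notes name Agilent Feature Extraction 9.5. The deposited columns also flag spots above background and outlier spots. Groups and replicate numbers came from the sample titles, and the labels state 8 mice. The log2 of the processed signal was taken minus the 75th percentile of the array over non-control spots. Outlier spots (74 to 115 per array) were set missing, and spots of a probe were averaged. Probes above background on at least 4 of 8 arrays were tested (27164), and the brightest tested probe stood for a gene (17983 genes). Names were updated through RefSeq (GRCm38.p6). The genotype comparison used lmFit and eBayes of limma 3.58.1 (R 4.3.3), two-sided, and the fit was tested on simulated data. Alternatives covered background correction, scaling, filters, slide, scan day and replicate blocks, array weights and each array left out.

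The 9 genes and all lists were chosen with earlier results of these data known. Besides the 9 genes and Npc1, genes were named by rule. Per pathway list these were any called gene or else the 2 with the smallest p, and per gene its 2 closest matches. Apaf1 and genes not tested were named for their role. The cell type markers named, among them Gfap with the smallest p of its list, fall outside that rule. Some genes and probe sequences are not reported here.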

Additional observations from a re-analysis of the deposited data

Results flagged for a closer look

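A single array lay far from the rest of its group on 2 of the 15 tested probes. On the Bcl2 clone probe A_52_P438280, Npc1-/- replicate 4 was at -3.12, while the other Npc1-/- mice lay between -2.23 and -2.16. On the Bcl2l1 probe A_51_P299454, wild-type replicate 2 was at -3.22, while the other wild-type mice lay between -2.84 and -2.78. In all, 30 groups of 4 arrays were examined, and chance alone marks about 1 in 20 groups. Neither probe is the brightest of its gene, so neither enters the values of the 9 genes.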

How the results depend on the processing

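None of the 9 genes and none of their probes passed the threshold under any of the 18 alternatives in which they were tested. Bid ran from 0.24 to 0.51, Casp8 from 0.13 to 0.42, Bcl2 from 0.20 to 0.55, Bax from -0.24 to -0.02 and Bcl2l1 from -0.37 to -0.12, each keeping its direction. Others changed sign around 0. Mcl1 was 0.01 with normexp and quantile normalization, 0.03 with quantile normalization, 0.06 with array weights and 0.04 without wild-type replicate 3. Casp9 was 0.01 with quantile normalization, 0.02 with the slide as a block, 0.00 with the scan day as a block and 0.05 without Npc1-/- replicate 1. Bak1 was 0.02 as the mean of its probes and 0.06 without Npc1-/- replicate 1, and Bcl2l11 was -0.03 with median centring, which moved the median of all genes to -0.12. With 1 array left out, Mcl1 ran from -0.07 to 0.04, Casp9 from -0.09 to 0.05 and Bak1 from -0.14 to 0.06. The number of genes called on the whole array, 138, became 87 with quantile normalization, 75 with median centring, 59 without a filter, 88 with genes above background on all arrays, 38 with the slide as a block, 27 with the replicate block and 389 (301 higher, 88 lower) with array weights. Leaving out 1 array gave 55 to 148, with 86 when wild-type replicate 4 was absent and 65, 60 and 55 when Npc1-/- replicate 1, 2 or 4 was. Pathway genes called were 0, but 1 with normexp (Bcl2a1b, limma adjusted p 0.0463) and 0 to 1 with 1 array left out. Array weights gave 2 (Bcl2a1b and Casp1, limma adjusted p 0.0225 and 0.0485). That setting weighted wild-type replicate 4 at 4.28 and the other wild-type arrays at 0.41 to 0.67. All values with array weights thus rest mostly on that array for their wild-type side. Deviations of arrays sharing a replicate number correlated at 0.149, 0.038, -0.445 and 0.201, and not every array correlated best with its own number. The labels do not say whether replicate numbers pair the mice, and these correlations cannot settle it. The cause of the differences between the alternatives was not tested. Signal near background limits the Bcl2l11 probes that were not tested.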
